A study of Mus musculus with 6 samples.

Results

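The MYC, MAX and MXD network was followed through 10 genes in mouse blood stem and progenitor cells. The members are Myc, Mycn, Mycl, Max, Mxd1, Mxi1, Mxd3, Mxd4, Mnt and Mga. They were taken by symbol from 15845 Entrez genes in the count table, and all 10 passed the filter on low counts that left 13149 genes for testing. RNA was sequenced from LSK cells, the bone marrow fraction that lacks mature lineage markers and carries Sca1 and c-Kit. The groups are 3 libraries of mice that received TP-3654, an inhibitor of the kinase Pim1 according to the title, daily at 150 mg/kg/day over 6 weeks, and 3 libraries of mice that received vehicle, given as PBS in the labels. All mice were C57BL/6 with the genotype Mx1Cre; Jak2VF/VF, so both groups carry 2 copies of the Jak2 V617F allele of myeloproliferative neoplasm. Mx1Cre is a recombinase under an interferon-responsive promoter and is not specific to blood cells, the age of the mice is not given in the labels, and no wild-type library is analysed here.

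MYC proteins are basic helix-loop-helix leucine zipper transcription factors that bind the DNA element called the E-box as pairs with MAX and activate genes for growth, ribosome assembly and metabolism. The MXD proteins, MNT and MGA pair with the same MAX and repress such genes, the MXD proteins and MNT by bringing in SIN3 and histone deacetylases. In mice, Myc and Mycn act together to keep blood stem cells able to self-renew and differentiate. PIM kinases are known to phosphorylate MYC protein and to slow its degradation, which RNA counts do not measure.

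Of the members, 3 carry the E-box CACGTG, the palindrome that MYC-MAX and MXD-MAX pairs bind, in their own promoter window. These stretches are shown because they are the network's own binding element on its own genes. The windows are RefSeq's, from 250 bases before to 50 bases after each annotated start on GRCm38.p6, and the E-box is in capitals.
Max (chr12:76962234-76962263, minus strand): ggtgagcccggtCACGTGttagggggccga
Mnt (chr11:74830789-74830818, plus strand): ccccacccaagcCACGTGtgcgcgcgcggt
Mxd4 (chr5:34187912-34187941, minus strand): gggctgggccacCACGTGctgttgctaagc
In Max the element begins 3 bases before the annotated start, in Mnt 123 and in Mxd4 219. No window was given for Myc. The other 9 members have 11 windows, of which 3 held CACGTG, which reads the same on both strands, against 7.15% of all 32851 windows of that length. Mycn, the member that differed most between the groups, holds no CACGTG in its window but carries matches to E2F-type elements. The search used TTTCGCGC, TTTGGCGC, TTTCCCGC and TTTGCCGC on both strands, and the matches are in capitals.
Mycn (chr12:12941987-12942029, minus strand): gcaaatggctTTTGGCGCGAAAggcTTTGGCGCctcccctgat
The capitals hold TTTGGCGC at 2 places and the reverse complement of TTTCGCGC once, with the first match overlapping the second, and they begin 183 bases before the start. Of all windows, 0.514% held TTTGGCGC and 0.323% held TTTCGCGC. The motif TTCNNNGAA, bound by STAT factors, occurred in 0 of the 11 member windows and in 8.30% of all windows. A match describes letters in the window only.

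Library totals ran from 20582057 to 25315596 counts, and a count of 3 corresponded to 0.119 to 0.146 CPM, under which detection was not possible at this depth. Levels are given as CPM, the share of a library's counts scaled by TMM factors. The sort markers were present in every library: Kit stood at 436, 492 and 581 CPM in TP-3654 replicates 1 to 3 and at 365, 377 and 375 CPM in vehicle replicates 1 to 3, and Ly6a, which encodes Sca1, at 60.5 to 68.3 CPM in TP-3654 and 40.0 to 69.2 CPM in vehicle libraries. In bulk RNA, fewer cells of a type and less RNA per cell cannot be told apart. Of 9 lineage markers, the T cell gene Cd3e, the B cell gene Ms4a1 and the neutrophil gene Ly6g had at most 4 counts in any library. The myeloid integrin gene Itgam averaged 40.6 ± 20.3 CPM in TP-3654 and 32.8 ± 12.1 CPM in vehicle libraries (SD, n = 3 each).

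Myc dominated the network at the RNA level. Per kilobase of exon, which allows genes to be compared, Myc averaged 254 ± 57.5 CPM per kb in TP-3654 and 289 ± 41.8 CPM per kb in vehicle libraries (SD, n = 3 each), and over all 6 libraries it lay above 98.6% of the 12572 genes with a length. Max, the shared partner, came second at 66.7 ± 7.98 CPM per kb in TP-3654 and 73.7 ± 4.29 CPM per kb in vehicle libraries. Mxd4 came next at 28.3 ± 5.62 and 28.2 ± 4.27 CPM per kb in TP-3654 and vehicle libraries. In both groups the ranges of Myc, Max and Mxd4 over libraries did not touch each other. The place of Mxd4 rests on the deposited counts, with a mean normalized count of 2465. The authors' deposited table gives 499 for it, which would place Mxd4 lower.

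Below Mxd4 the order depended on the group. In TP-3654 libraries Mycn (22.9 ± 3.28 CPM per kb) stood above Mnt (19.0 ± 1.28), with ranges that overlapped, and Mycn also overlapped Mxd4. In vehicle libraries Mnt (16.6 ± 1.62 CPM per kb) stood above Mycn (12.4 ± 4.89), again with overlap. The lower members, Mga, Mxd3, Mxi1 and Mxd1, averaged 5.88 to 9.61 CPM per kb in TP-3654 and 6.62 to 11.2 CPM per kb in vehicle libraries. In TP-3654 libraries each of these overlapped its neighbour in the order, whereas in vehicle libraries Mxd3 lay above Mxi1 and Mxi1 above Mxd1 without overlap. Mycl was last, at 0.565 ± 0.268 and 0.383 ± 0.130 CPM per kb in TP-3654 and vehicle libraries, above only 7.87% of genes. Exon lengths were taken from an annotation of the submitters' build, and the transcripts used in these cells were not measured, so levels between genes are approximate.

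**Figure D1:**
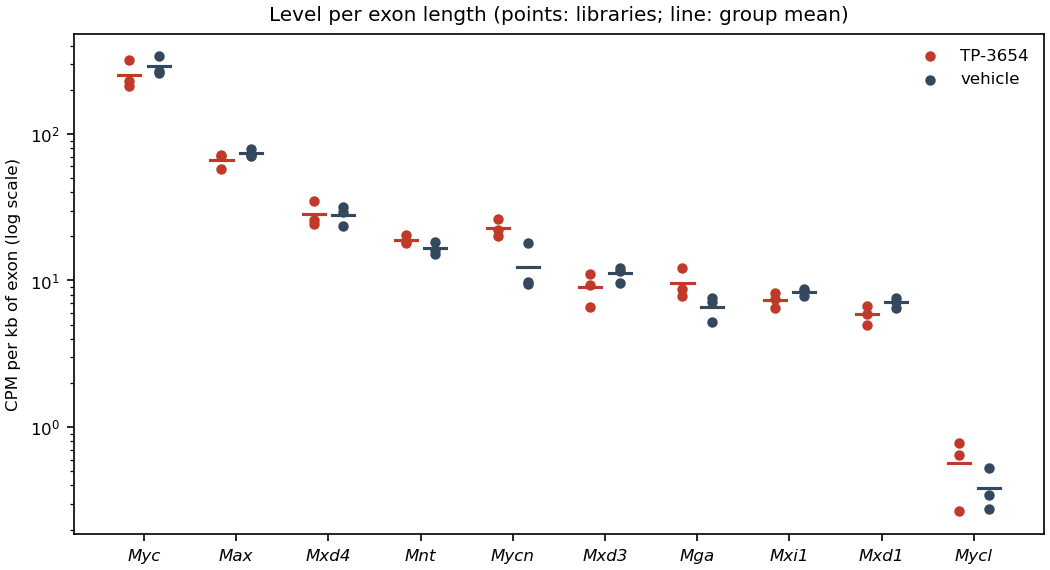
Level of each member in CPM per kb of exon on a log axis, ordered by the mean over 6 libraries, with TP-3654 left of vehicle; points are libraries and lines are group means. Myc and Max stand apart at the top in both groups. By the deposited counts Mxd4 comes next and overlaps Mycn in TP-3654 libraries. Mycl is lowest at 0.565 CPM per kb in TP-3654 and 0.383 CPM per kb in vehicle libraries.

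TP-3654 was then compared with vehicle in edgeR across all 13149 genes. At an adjusted p under 0.05, edgeR called 0% of genes, and so 0 of the 10 members. At an unadjusted p under 0.05, 2 members were higher with TP-3654, Mycn and Mga, against 10.2% of all genes, and 0 were lower, against 6.84% of all genes. The same 2 members lay in every TP-3654 library above every vehicle library, which held for 14.3% of genes. None lay below, which held for 11.6% of genes. DESeq2 called 1 member, Mycn, against 4.92% of genes. In log2 fold change 5 members were higher and 5 lower. Their median was -0.07 beside 0.01 over all tested genes, and the median absolute log2 fold change was 0.23 beside 0.21.

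Mycn (GRCm38 chr12:12936093-12941836), which encodes the N-Myc partner of MAX, was the member with the smallest p. It stood at 62.3, 74.1 and 56.0 CPM in TP-3654 replicates 1 to 3, against 50.6, 27.4 and 26.4 CPM in vehicle replicates 1 to 3. The groups do not overlap, although vehicle replicate 1 lies close to the lowest TP-3654 library and far above the other vehicle libraries. Mycn was 1.84-fold higher with TP-3654 (log2 fold change 0.88, SE 0.26, 95% interval 0.27 to 1.49, edgeR adjusted p = 0.179). DESeq2 gave the same counts a log2 fold change of 0.87 with an adjusted p of 0.0158. That DESeq2 call held without TP-3654 replicate 3 (adjusted p = 0.0149) and without vehicle replicate 1 (adjusted p = 1.29e-08). It was lost without TP-3654 replicate 1 (adjusted p = 0.0788), TP-3654 replicate 2 (0.130), vehicle replicate 2 (0.181) or vehicle replicate 3 (0.152). Across fits lacking 1 library in turn, edgeR gave log2 fold changes between 0.72 and 1.25, with adjusted p from 0.152 to 0.372.

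Myc itself (chr15:61985341-61990361) overlapped between the groups. It stood at 522, 782 and 560 CPM in TP-3654 libraries 1 to 3, against 638, 660 and 825 CPM in vehicle libraries 1 to 3. The highest TP-3654 library lies above 2 of the vehicle libraries, and the lowest value of all is in TP-3654 replicate 1. The log2 fold change was -0.19 (SE 0.18, edgeR adjusted p = 0.587), and its 95% interval, from -0.59 to 0.21, holds both a modest decrease and a small increase. Without TP-3654 replicate 2 the log2 fold change was -0.39 (edgeR unadjusted p = 0.0461, adjusted p = 0.283), and without vehicle replicate 3 it was -0.06. Of the summed per-kilobase level of Myc, Mycn and Mycl, Mycn made up 9.43%, 7.62% and 8.005% in TP-3654 libraries 1 to 3 and 6.46%, 3.50% and 2.71% in vehicle libraries 1 to 3. Each TP-3654 library has the higher share.

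Mycl, which encodes L-Myc and is best known in dendritic cells, was near the lower limit of these counts, with 21, 61 and 56 reads in TP-3654 and 49, 28 and 22 reads in vehicle libraries. Its groups overlapped (log2 fold change 0.55, SE 0.46, edgeR adjusted p = 0.536), and the interval ran from -0.48 to 1.58.

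**Figure D2:**
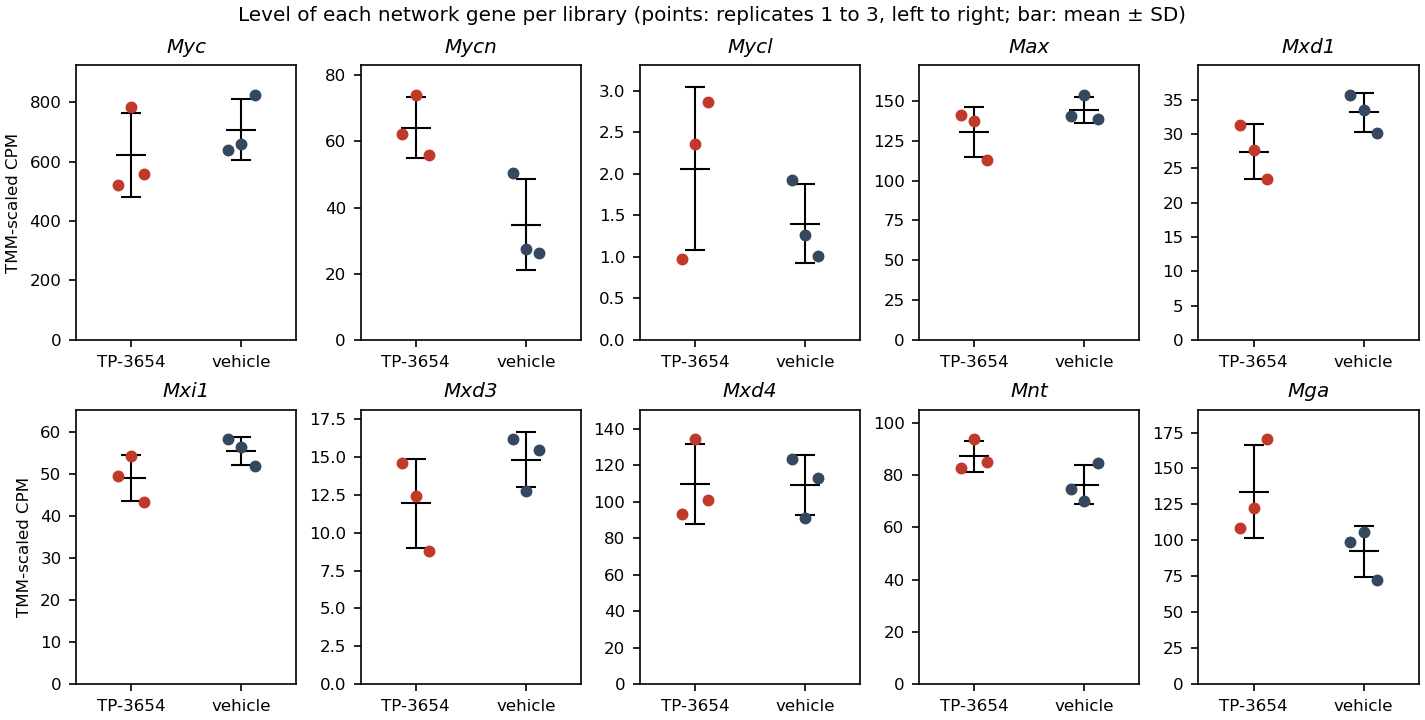
TMM-scaled CPM of each member by library, TP-3654 left of vehicle, each panel with its own axis from 0; points are replicates 1 to 3 and bars are the mean ± SD. Mycn (56.0 to 74.1 CPM with TP-3654, 26.4 to 50.6 with vehicle) and Mga (109 to 171 with TP-3654, 72.3 to 106 with vehicle) are the 2 members whose groups do not overlap.

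Max, without which neither MYC nor MXD proteins bind the E-box, stood at 141, 138 and 113 CPM in TP-3654 and 140, 154 and 139 CPM in vehicle libraries. TP-3654 replicate 3 was low and the other TP-3654 libraries lay near the vehicle values. The log2 fold change was -0.14 (SE 0.12, interval -0.41 to 0.13, edgeR adjusted p = 0.537).

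The 4 MXD genes leaned lower or level, and each overlapped between the groups. Mxd1, which in mice is induced as granulocytes mature, stood at 31.3, 27.6 and 23.4 CPM in TP-3654 and 35.7, 33.5 and 30.2 CPM in vehicle libraries. A single pair overlapped, TP-3654 replicate 1 being above vehicle replicate 3, and the log2 fold change was -0.27 (SE 0.15, interval -0.61 to 0.06, edgeR adjusted p = 0.371). Mxi1, also called Mxd2, stood at 49.6, 54.3 and 43.4 CPM in TP-3654 and 58.4, 56.4 and 52.0 CPM in vehicle libraries, with a log2 fold change of -0.18 (SE 0.12). Mxd3, the MXD gene found in dividing cells in S phase in mice, stood at 14.6, 12.4 and 8.79 CPM in TP-3654 and 16.2, 12.8 and 15.5 CPM in vehicle libraries, with a log2 fold change of -0.31 (SE 0.22). For Max, Mxd1, Mxi1 and Mxd3 the lowest of the 6 libraries was TP-3654 replicate 3. Mxd4 stood at 93.6, 135 and 101 CPM in TP-3654 and 124, 91.1 and 113 CPM in vehicle libraries, with a log2 fold change of 0.01 (SE 0.17, interval -0.37 to 0.38), whose sign turned with the scaling.

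Mnt, the MAX partner that is present in most cells alongside MYC, stood at 82.6, 93.8 and 85.1 CPM in TP-3654 and 74.6, 70.0 and 84.6 CPM in vehicle libraries. Vehicle replicate 3 reached into the TP-3654 range. The log2 fold change was 0.19 (SE 0.11, interval -0.07 to 0.45, edgeR adjusted p = 0.410).

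Mga (chr2:119872503-119970129), which encodes a very large protein with both a T-box and a MAX-binding domain and belongs to a noncanonical Polycomb complex, was 1.45-fold higher. It stood at 109, 122 and 171 CPM in TP-3654 and 98.6, 106 and 72.3 CPM in vehicle libraries. The groups are separated by a narrow gap between TP-3654 replicate 1 and vehicle replicate 2, and the extremes are TP-3654 replicate 3 and vehicle replicate 3. The log2 fold change was 0.54 (SE 0.20, interval 0.08 to 0.99, edgeR adjusted p = 0.240). Leaving out TP-3654 replicate 3 gave 0.32 and leaving out vehicle replicate 3 gave 0.39, and in both fits the unadjusted p was above 0.05 (0.0643 and 0.0937).

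Mga has the longest exons of the network, 13.9 kb, and these same 2 libraries stood apart for long genes in general. Genes with more than 10 kb of exon, 372 in number and including Mga, deviated from their mean over libraries by a median log2 CPM of 0.03, 0.07 and 0.32 in TP-3654 replicates 1 to 3 and -0.09, -0.04 and -0.29 in vehicle replicates 1 to 3. The 6 libraries rank in the same order by Mga and by that median. Among those genes 31.2% were higher at an unadjusted p under 0.05, against 3.74% of the 2996 genes with up to 2 kb of exon. In a limma fit added after the data were seen, with the trend on exon length removed from each library, the value for Mga was 0.21 (log2, SE 0.11, adjusted p = 0.382), against 0.53 in the same fit with the trend kept. Since that median was higher in each TP-3654 library, removing the trend also removes any group difference that long genes share. The 2 cannot be told apart here, and the part of exon length in the value of Mga was not tested. Mycn, with 2.80 kb of exon, had 0.98 with the trend removed and 0.94 with it kept. Mxi1 had -0.35 and Mxd1 -0.36 with the trend removed, each at an unadjusted p under 0.05 there but with adjusted p of 0.238 and 0.269.

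**Figure D3:**
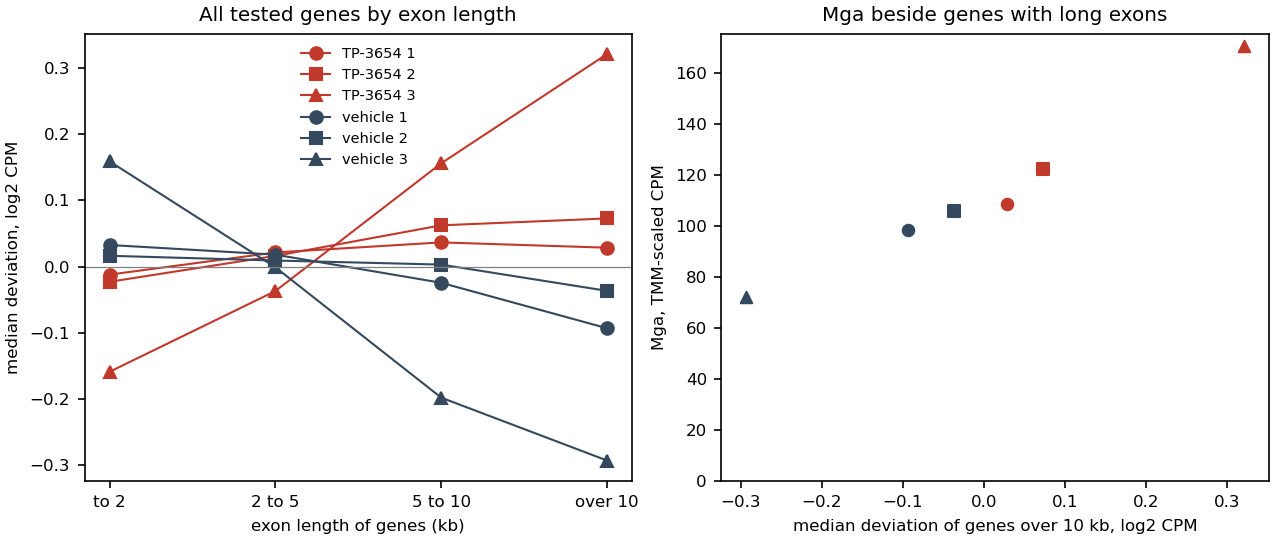
Left, median deviation of genes from their mean over 6 libraries (log2 CPM) by exon length in kb, 1 line per library; right, Mga in CPM against that median for genes over 10 kb, with the same colours and symbols. TP-3654 replicate 3 (0.32) and vehicle replicate 3 (-0.29) are the extremes for long genes and also for Mga, at 171 and 72.3 CPM.

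**Figure D4:**
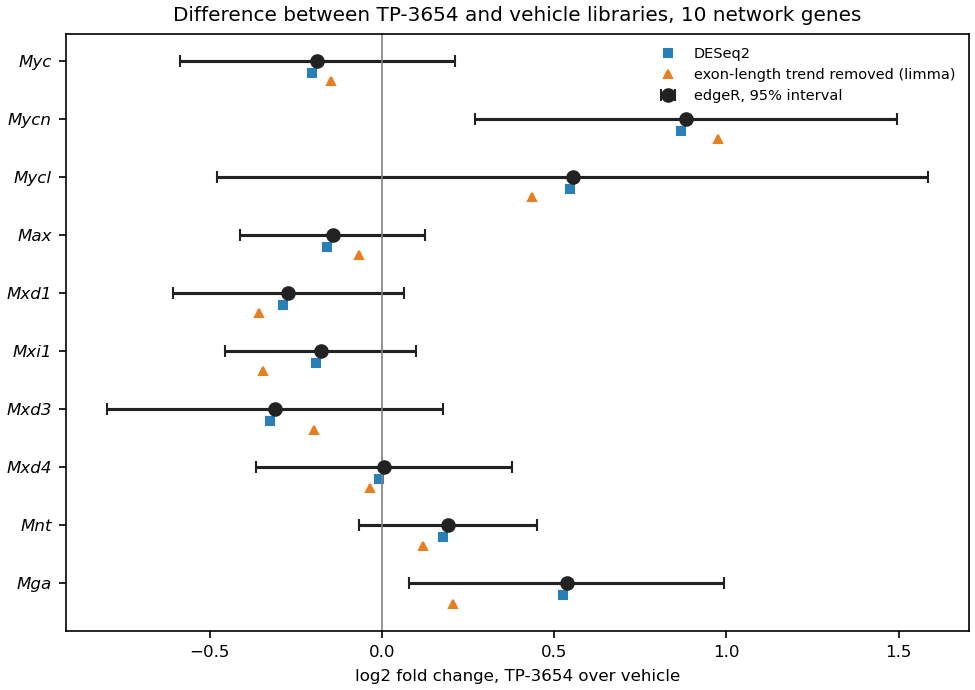
Log2 fold change of TP-3654 over vehicle for each member: circles with 95% intervals from edgeR, squares from DESeq2, triangles from a limma fit with the exon-length trend removed. The edgeR intervals of Mycn (0.27 to 1.49) and Mga (0.08 to 0.99) lie above 0, and the triangle of Mga is at 0.21.

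Set against each other within a library, repressors and activators kept a similar balance in both groups. The summed per-kilobase level of Mxd1, Mxi1, Mxd3, Mxd4 and Mnt was 0.286, 0.226 and 0.251 of that of Myc, Mycn and Mycl in TP-3654 replicates 1 to 3. In vehicle replicates 1 to 3 it was 0.275, 0.229 and 0.212. The ranges overlap almost entirely, and the ratio is free of scaling between libraries. Activator RNA thus stood 3.50 to 4.42 times above repressor RNA in TP-3654 libraries and 3.64 to 4.72 times above it in vehicle libraries. Mxd4 alone averaged 28.3 of 69.5 CPM per kb of summed repressors in TP-3654 and 28.2 of 71.4 in vehicle libraries. Its mean count is 4.94 times that in the authors' deposited table, so these ratios hold for the deposited counts only.

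The wider network was described through lists chosen with earlier results of these data known. In the MLX branch, a parallel set of factors that pairs with MLX in place of MAX and senses glucose, Mlx stood at 31.3, 33.4 and 27.0 CPM in TP-3654 and 44.7, 37.8 and 35.1 CPM in vehicle libraries. Each TP-3654 library was lower (log2 fold change -0.36, SE 0.15, edgeR adjusted p = 0.260). Mlx has 1.99 kb of exon. With the exon-length trend removed in limma, 0 genes of this branch had an unadjusted p under 0.05, against 1 with it kept. Mlxip, which encodes the MLX partner MondoA, lay higher in each TP-3654 library (log2 fold change 0.31, adjusted p = 0.343), and Mlxipl had at most 8 counts in any library. Both listed MondoA targets were higher in each TP-3654 library. Txnip, an inhibitor of glucose uptake, stood at 309, 358 and 356 CPM in TP-3654 and 242, 220 and 193 CPM in vehicle libraries (log2 fold change 0.64, SE 0.13, edgeR adjusted p = 0.0792), and DESeq2 called it. For Arrdc4, a relative of Txnip, it was 0.42 (adjusted p = 0.267).

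Partner complexes of the network were read against all genes, of which 10.2% were higher and 6.84% lower at an unadjusted p under 0.05. Of 10 SIN3 corepressor genes, through which MXD proteins repress, edgeR called 0 and DESeq2 0. Sap30, with 1.18 kb of exon, was the member lower at an unadjusted p under 0.05 (log2 fold change -0.41), and the list median was 0.01. Without TP-3654 replicate 3 or any vehicle library no member was at that level. With the exon-length trend removed in limma 0 were, against 1 with it kept. Of 11 genes of the Polycomb complex that holds MGA, edgeR and DESeq2 called 0. Pcgf6, its defining Polycomb subunit, was the member at an unadjusted p under 0.05, at 42.5 ± 1.22 CPM in TP-3654 and 35.2 ± 2.28 CPM in vehicle libraries (SD, n = 3 each), a log2 fold change of 0.27. With single libraries left out, 0 to 2 genes of the complex were higher at that level and 0 or 1 lower. Of 19 coactivator genes, edgeR and DESeq2 called 0, and the chromatin reader gene Bptf (log2 fold change 0.42) and the acetyltransferase gene Crebbp (0.30) were higher at an unadjusted p under 0.05. Leaving out replicate 3 of either group reduced that count to 0, as did removing the exon-length trend in limma. With the trend kept, limma gave 2. Bptf has 12.1 kb of exon and Crebbp 10.8 kb. Of 19 genes for MYC protein turnover, edgeR and DESeq2 called 0. The deubiquitinase genes Usp22 (log2 fold change 0.36) and Usp28 (0.36) and the ubiquitin ligase gene Huwe1 (0.41) were higher at an unadjusted p under 0.05, and 0 were lower. The higher count was 4 when TP-3654 replicate 2 was left out and 0 when vehicle replicate 1 was. Without single libraries 0 to 2 were lower. With the exon-length trend removed in limma 1 was higher and 2 lower, against 1 and 1 with it kept. Huwe1 has 14.6 kb of exon. Fbxw7, the ligase subunit that marks MYC for degradation, stood at 30.8 ± 0.657 CPM in TP-3654 and 28.4 ± 0.953 CPM in vehicle libraries (log2 fold change 0.12, adjusted p = 0.616), and is named although outside the naming rule.

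Among the PIM kinase genes, whose products are the targets of TP-3654 and act on MYC protein, Pim2 was higher in each TP-3654 library, at 71.0, 130 and 73.0 CPM in TP-3654 and 46.1, 32.0 and 41.2 CPM in vehicle libraries. Its log2 fold change was 1.20 (SE 0.26, edgeR adjusted p = 0.107), and DESeq2 called it (adjusted p = 0.000228). Pim1 and Pim3 overlapped between the groups, with log2 fold changes of 0.28 and -0.08.

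Genes known to be activated by MYC showed small differences. Of 104 tested genes in 4 lists, edgeR called 0, 3 were higher and 0 lower at an unadjusted p under 0.05 (2.88%, beside 17.1% of all genes), and DESeq2 called 1. The median log2 fold change was 0.05, and 4 genes lay in each TP-3654 library above each vehicle library while 0 lay below, beside 14.3% and 11.6% of all genes. The DESeq2 share over all genes was 4.92%. The count of higher genes was 8 when vehicle replicate 2 was left out, 6 when TP-3654 replicate 2 was, and 2 when replicate 3 of either group or vehicle replicate 1 was left out.

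The 38 nucleolar and ribosome assembly genes, the best known class of MYC targets, summed to 10595, 10100 and 12137 CPM in TP-3654 and 8686, 10907 and 10662 CPM in vehicle libraries, with overlap. Their median log2 fold change was 0.10. Utp20 (log2 fold change 0.38), Nop56 (0.40), Rrp12 (0.31) and Ddx18 (0.35), all ribosome assembly factors, had the smallest p. Only the first was at an unadjusted p under 0.05, and none passed the adjusted threshold (edgeR adjusted p = 0.274 for Utp20). With the exon-length trend removed in limma, 0 nucleolar genes were at that unadjusted level, against 1 with the trend kept. Nucleolin, from Ncl, stood at 2312 ± 89.0 CPM in TP-3654 and 2293 ± 341 CPM in vehicle libraries (SD, n = 3 each). The 34 biosynthesis genes had a median of 0.06. The nucleoside transporter gene Slc29a2 was higher (log2 fold change 0.43, edgeR adjusted p = 0.249), followed by the glucose transporter gene Slc2a1 (0.25), the CTP synthase gene Ctps (0.24) and the spermidine synthase gene Srm (-0.20), of which only Slc29a2 had an unadjusted p under 0.05.

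The 18 translation and mitochondrial genes had a median of -0.06, with 0 at an unadjusted p under 0.05 in edgeR and 0 called by DESeq2. Among them the smallest p belonged to the coactivator gene Pprc1 (log2 fold change 0.34), the translation factor gene Eif5a (-0.25), the methyltransferase gene Prmt3 (0.20) and the prohibitin gene Phb2 (-0.27). The 14 cell cycle targets had a median of 0.03. Tert, the telomerase reverse transcriptase gene, stood at 8.37, 7.28 and 10.99 CPM in TP-3654 and 4.77, 3.602 and 5.73 CPM in vehicle libraries. Each TP-3654 library was higher (log2 fold change 0.92, SE 0.26, edgeR adjusted p = 0.152), and Tert is the 1 target that DESeq2 called (adjusted p = 0.0372). Ccnd2 (log2 fold change 0.35), a D cyclin gene, the helix-loop-helix inhibitor gene Id2 (0.37) and the helicase gene Mcm4 (0.15) overlapped between the groups.

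Of 12 genes that MYC is known to repress, 10 were tested and had a median log2 fold change of -0.18. At an unadjusted p under 0.05, 1 was higher and 1 lower, beside 10.2% and 6.84% of all genes. The lower one was Cebpa, the transcription factor gene of myeloid commitment, which also belongs to the myeloid progenitor markers. It stood at 78.0, 120 and 67.7 CPM in TP-3654 and 155, 157 and 171 CPM in vehicle libraries (log2 fold change -0.86, SE 0.20, edgeR adjusted p = 0.106), and DESeq2 called it. The higher one was the stress gene Ndrg1 (log2 fold change 0.41). The integrin gene Itga6 (0.29) and the stress factor gene Ddit3 (-0.37) overlapped between the groups. Without TP-3654 replicate 1 the counts at an unadjusted p under 0.05 were 2 higher and 3 lower. Without TP-3654 replicate 2, TP-3654 replicate 3 or vehicle replicate 1 they were 0 higher and 1 lower.

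**Figure D5:**
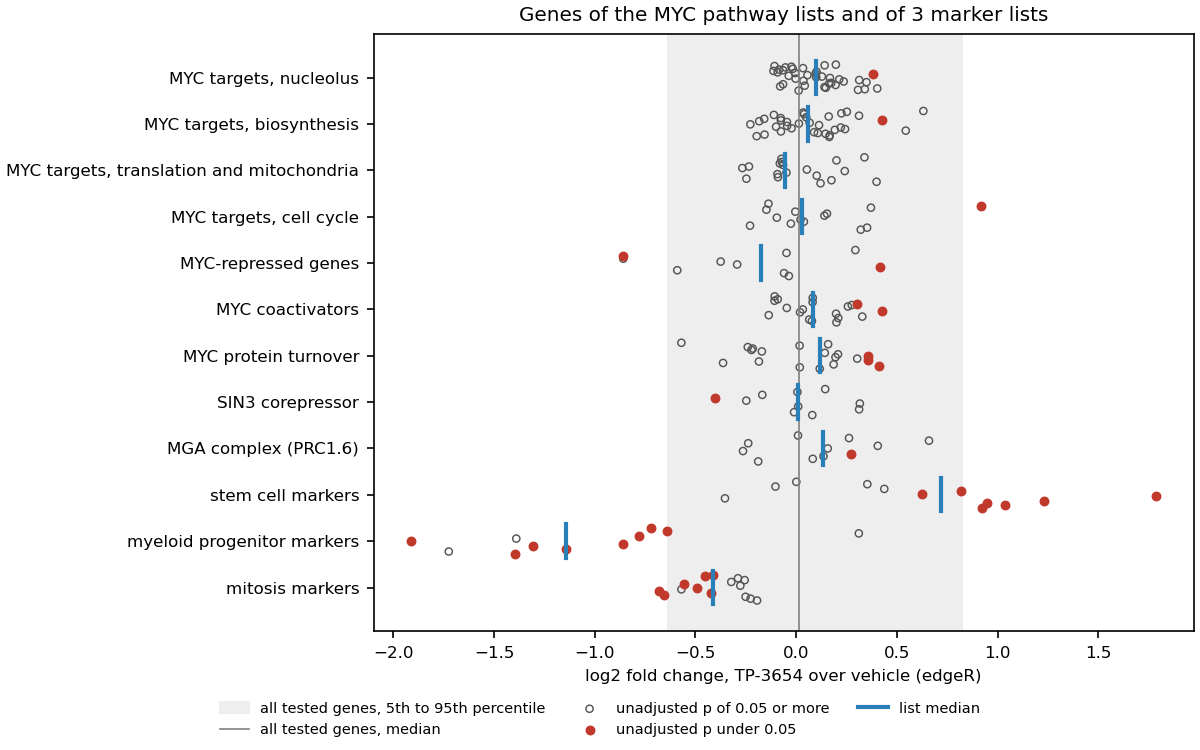
Log2 fold change (TP-3654 over vehicle, edgeR) of each gene in 9 MYC pathway lists and 3 marker lists; filled points have an unadjusted p under 0.05, blue bars are list medians, the grey band spans the 5th to 95th percentile of all tested genes. The 4 target lists have medians from -0.06 to 0.10, while the stem cell, myeloid progenitor and mitosis markers have medians of 0.72, -1.14 and -0.41.

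Some lists of markers of the cells within the sort differed between the groups. Of 12 stem cell markers, 7 were higher and 0 lower at an unadjusted p under 0.05, beside 10.2% and 6.84% of all genes, and their summed level was 612 to 674 CPM in TP-3654 and 328 to 415 CPM in vehicle libraries. Of 11 tested myeloid progenitor markers, 0 were higher and 8 lower, and they summed to 3583 to 9016 CPM in TP-3654 and 12164 to 15187 CPM in vehicle libraries. Of 15 mitosis markers, 0 were higher and 7 lower, and they summed to 2408 to 3315 CPM in TP-3654 and 3443 to 3646 CPM in vehicle libraries. Markers of mature neutrophils summed to 16.4 to 61.4 CPM in TP-3654 and 39.0 to 163 CPM in vehicle libraries, with 0 of 7 tested genes at that level. Of 5 tested lymphoid markers, 2 were higher. Of 7 tested erythroid markers 0 were higher and 0 lower, and of 6 tested megakaryocyte markers 1 was higher and 0 lower. Of the stem cell, myeloid progenitor and mitosis lists edgeR called 0 genes, whereas DESeq2 called 7 stem cell markers, 5 myeloid progenitor markers and 2 mitosis markers, beside 4.92% of all genes. The part of cell makeup in the values of Mycn or any other member was not tested.

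The genes whose log2 CPM followed Mycn most closely over the 6 libraries, among 10955 outside the network, were Elac1 (Pearson r = 0.989), Rnf217 (0.983) and Sqle (0.983), the squalene epoxidase gene of cholesterol synthesis. For Myc they were Alkbh2 (0.986), Fam117a (0.983) and Cpq (0.965). With 6 libraries such values are a description, since 118 genes had r above 0.9 with Mycn and 39 with Myc.

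The authors' deposited table of the same comparison calls 0 of the 10 members at an adjusted p under 0.05, beside 5.32% of its genes. In the authors' deposited table Mycn has a log2 fold change of 0.99 (adjusted p = 0.187), Mga 0.35 (0.166) and Myc -0.14 (0.778). Its mean normalized counts do not match the deposited counts for every gene. For Mxd4 the authors' deposited table gives a mean of 499, whereas the count table gives 2465, or 4.94 times more. For the other 9 members that ratio lies between 0.982 and 1.36, and 0.914% of genes differ by more than 4-fold in either direction. Mxd4 shares 6.1% of its annotated exon bases with a gene on the opposite strand, Mxd3 4.4% and Mxi1 2.8%, and with the strand setting unstated, reads of these 3 genes and their neighbours cannot be told apart there.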

How the data were processed

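The authors deposited whole-number read counts per Entrez gene for 6 libraries, without normalization. They also deposited a comparison table that, per the file headers, holds a signal value (mean normalized count), log2 fold changes and their standard errors, a score (Wald statistic) and raw and adjusted p-values per gene. Per the submitters' processing notes, HISAT2 2.1.0, SAMtools 1.9.0 and DESeq2 were used with mm10, also named GRCm38. Which counter, annotation and strand rule were applied is not given in the sources used here.

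The members and gene lists were chosen with earlier results of these data known. Symbols came from the authors' deposited table, else from RefSeq GRCm38.p6, for 15839 of 15845 genes. The deposited counts were compared with edgeR 4.0.16 under R 4.3.3 (TMM factors, filterByExpr, robust quasi-likelihood F test, Benjamini-Hochberg over 13149 genes, called under 0.05). Each SE was obtained by dividing the size of the log2 change by the square root of F. The steps were tested on simulated data. There edgeR called 61 of 100 genes planted at an absolute log2 change of 1 and 88 of 100 at 2. It also called 23 of 12814 unchanged genes, so a member with a smaller true change could go uncalled. Libraries are biological replicates per the design text. Exon lengths are unions over GENCODE M21 basic transcripts. Alternatives were DESeq2 1.42.0, limma 3.58.1 (voom, with and without sample weights), other scalings and filters, a replicate block and fits without each library. A limma fit with a lowess trend on log2 exon length removed per library, and DESeq2 without each library, were added after the data were seen, as were the E2F and STAT motif searches. Named genes are all members, all or up to 4 members of each pathway list by smallest p, 3 genes most like Myc and like Mycn, and sort and lineage markers. Genes outside that rule (Fbxw7, Ncl) were chosen after their values were seen.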

Additional observations from a re-analysis of the deposited data

How the results depend on the processing

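Among the log2 fold changes of the 10 members, 9 kept their direction under every alternative. Mxd4, at 0.0057, turned to -0.0057 with DESeq2 size factors, -0.0088 in DESeq2, -0.0022 with the replicate block, -0.035 and -0.0010 in limma with and without the exon-length trend removed, and between -0.17 and 0.11 without single libraries. The cause was not tested. Members called were 0 except 1 in DESeq2. Members at an unadjusted p under 0.05 were 2, and 1 with limma-voom sample weights or the replicate block, where Mga missed the threshold. Without single libraries they were 1 to 3, and the 3 without TP-3654 replicate 2 included Myc, which was lower. With the exon-length trend removed they were 3, Mycn higher and Mxd1 and Mxi1 lower, and Mga missed the threshold there too. Over all genes edgeR called 0 (2244 at an unadjusted p under 0.05), against 5 without the low-count filter, 3 with the block, 657 in DESeq2 and 147 with limma-voom sample weights, and 0 to 31 without single libraries. Same-numbered libraries correlated at -0.0117, -0.0150 and 0.0310 in their deviations from the group means. Of the TP-3654 libraries only replicate 3 correlated best with its own number. With 3 libraries a group, such values show no pairing by number and cannot exclude it. The ratio of repressors to activators averaged 0.254 with TP-3654 and 0.238 with vehicle. It was 0.421 and 0.392 from summed CPM and 0.290 and 0.261 with Mga among the repressors, and 0.239 to 0.268 and 0.220 to 0.252 without single libraries. Depth limits Mycl, at 21 to 61 reads a library.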
